A study of Homo sapiens with 4 samples.

Results

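The 9 genes described here encode the enzymes that make serine and pass its carbon into folate metabolism: PHGDH, PSAT1, PSPH, SHMT1, SHMT2, MTHFD1, MTHFD2, MTHFD1L and TYMS. They were taken by gene symbol from a list of enzymes, a list drawn up with earlier results of these data known, and all 9 were among the 18417 genes measured, with 1 probe set per gene (the brightest over the 4 arrays). The samples were 2 arrays of MV4-11, a human acute myeloid leukaemia line whose drivers are a fusion of MLL and a FLT3 receptor kinase made active by an internal tandem duplication, and 2 arrays of MV4-11R. MV4-11R was grown out of MV4-11 over 3 months in rising amounts of PKC412, also called midostaurin, which inhibits FLT3 along with other kinases. Both groups thus share their origin, whereas whether MV4-11R kept both lesions was not measured here, and the groups carry the labels drug-sensitive with high EZH2 and drug-resistant with low EZH2. MV4-11R is 1 derived line. Whether it is a clone, and whether PKC412 was in the medium when RNA was taken, is not given in the sources used here.

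In serine synthesis, PHGDH, PSAT1 and PSPH act in turn on a glycolytic intermediate. SHMT2 in mitochondria and SHMT1 in the cytosol then split serine into glycine and a carbon unit carried by tetrahydrofolate. In mitochondria MTHFD2 oxidises that unit and MTHFD1L releases it as formate, which leaves for the cytosol. There MTHFD1 loads formate onto folate again for purine synthesis, and TYMS uses folate-bound carbon to make thymidylate for DNA. Proliferating blood cells use the pathway heavily, and antifolate drugs act on it.

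Array medians ran from 6.75 to 6.78 on the log2 scale of the deposited signal. Across genes, which are not independent replicates, r was 0.994 between the MV4-11 arrays, 0.993 between the MV4-11R arrays and 0.968 to 0.974 between lines. The 361 olfactory receptor genes, which blood cells hardly express, had a 95th percentile of 6.28, taken here as a guide to background. All 36 values of the 9 enzymes lay above it, the lowest being 7.89. Of 10 AML and myeloid markers 7 lay above it on every array, SPI1 and CEBPA among them, and 1 lay below it on every array. In MV4-11R 4 of the 10 fell, against 7.13% of all genes. Above the guide on every array were also 7 of 10 epithelial and fibroblast and 3 of 6 erythroid and megakaryocytic markers. So were 3 of 5 B cell and 1 of 7 T and NK cell markers. Below it on every array lay 3, 2, 2 and 4 markers of these 4 lists. The guide thus does not separate the line's own lineage from other cells. EZH2, by which the groups are labelled, read 9.75 and 9.74 in MV4-11 and 9.90 and 9.29 in MV4-11R (difference -0.14, limma adjusted p = 0.734). These arrays read RNA and not protein, so the values do not test a label that may rest on protein.

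Of the 9 enzymes MTHFD1L and MTHFD1 rose in MV4-11R, TYMS fell, and 6 did not pass, where passing means a Benjamini-Hochberg adjusted p under 0.05 in limma's test over all genes. Over all genes 15.1% passed, 7.92% as rises and 7.13% as falls. The median difference of the 9 enzymes was 0.16 log2 units, and that of all genes 0.01. In 5 of the 9 (SHMT1, MTHFD1, MTHFD2, MTHFD1L and TYMS) both arrays of a line lay on one side of both arrays of the other, a share of genes that was 55.6% in the whole table. In a bulk measurement of this kind, a change in the share of cells that express a gene and a change in RNA per cell cannot be told apart.

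**Figure D1:**
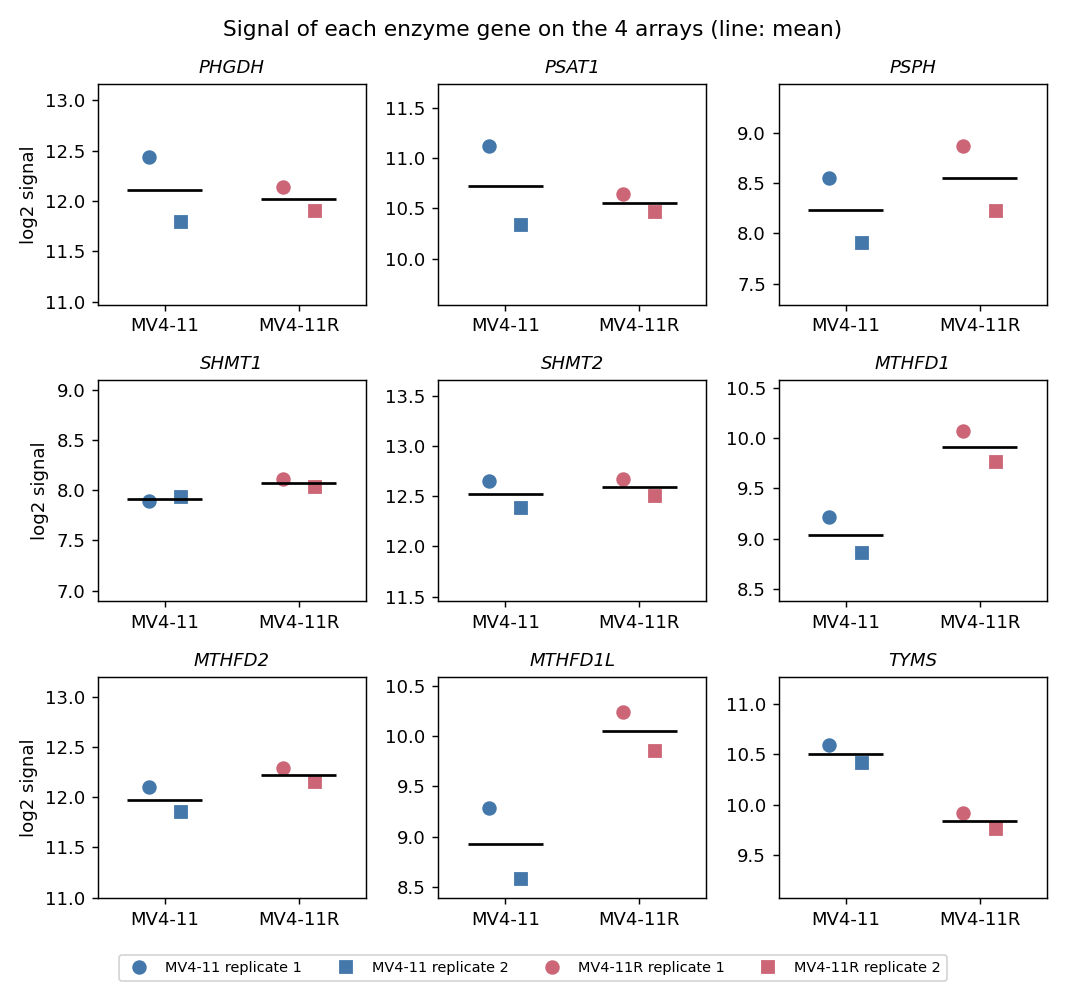
Log2 signal (y axis) of the 9 enzyme genes on each array of MV4-11 and MV4-11R (x axis), with circles for replicate 1, squares for replicate 2 and a bar at each line's mean. Every panel spans the same number of log2 units. MTHFD1 and MTHFD1L are higher on both MV4-11R arrays and TYMS is lower, whereas the PHGDH, PSAT1, PSPH and SHMT2 values of the lines overlap.

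The promoters of the enzymes that changed are shown with the short motifs found in them. RefSeq windows of 300 bases (assembly GRCh38.p14, from 250 bases before a gene's start to 50 after it) were matched by symbol for 7 of the 9 enzymes, with 4 windows for MTHFD1L, which has several starts. Both strands were searched for CACGTG (the E-box of MYC and related factors), TGATGNAA (a composite site for CEBP and ATF4 proteins), CCAAT, TTTCGCGC and TTTGGCGC (E2F sites); E-boxes, CCAAT and composite matches are in capitals. The first line holds the 250 bases before the start of MTHFD1, at chr14:64388103-64388352, and the next lines 30 bases around each of 2 MTHFD1L motifs, at chr6:150866320-150866349 and chr6:150866346-150866375. The last holds the 250 bases before the start of TYMS, at chr18:657403-657652, and all 4 stretches are on the plus strand.
MTHFD1: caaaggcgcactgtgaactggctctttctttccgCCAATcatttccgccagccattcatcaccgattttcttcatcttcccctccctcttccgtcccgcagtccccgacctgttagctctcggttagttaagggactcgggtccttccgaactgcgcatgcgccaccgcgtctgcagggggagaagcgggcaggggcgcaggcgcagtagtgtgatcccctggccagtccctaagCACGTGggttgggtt
MTHFD1L, E-box: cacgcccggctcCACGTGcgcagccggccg
MTHFD1L, composite: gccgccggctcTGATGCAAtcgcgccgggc
TYMS: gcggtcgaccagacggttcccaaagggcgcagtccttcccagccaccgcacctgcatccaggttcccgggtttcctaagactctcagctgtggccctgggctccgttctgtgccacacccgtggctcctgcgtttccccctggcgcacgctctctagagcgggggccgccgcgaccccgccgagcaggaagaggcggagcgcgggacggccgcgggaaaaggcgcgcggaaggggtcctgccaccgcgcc

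CACGTG was found in the windows of both enzymes that rose, MTHFD1 and MTHFD1L, and in 2 of the 7 enzymes with a window, against 8.77% of the 27305 genes with a window in the same table (any window of a gene counts). The composite TGATGNAA was found for MTHFD1L alone among the 7, in 3 of its 4 windows, which overlap, against 4.46% of genes. Its place depends on the start used, since its first base is 129 or 90 bases before 2 of the listed starts and base 25 after another. CCAAT was found in 6 of the 7 enzymes, TYMS being the exception, against 39.7% of genes. A gene with several windows, such as MTHFD1L, has more chances of a match. Neither E2F sequence was found for any of the 7, and the TYMS window held none of the 5 motifs, where TTTCGCGC occurred in 0.630% and TTTGGCGC in 0.795% of genes. These are matches of letters in a short window and describe sequence, with no measure of binding.

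The first question is how the enzymes of serine synthesis differed between the resistant line and its parent. PHGDH, which carries out the first step, read 12.44 and 11.79 in MV4-11 and 12.14 and 11.90 in MV4-11R. Both MV4-11R arrays lay between the MV4-11 arrays, so the groups overlapped. The difference was -0.09 log2 units (SE 0.22, limma adjusted p = 0.854), with a 95% interval from -0.64 to 0.46. PSAT1, the aminotransferase of the second step, read 11.12 and 10.33 in MV4-11 and 10.64 and 10.46 in MV4-11R. Here too the MV4-11R values fell inside the range of MV4-11, at a difference of -0.17 (SE 0.25, interval -0.79 to 0.45, adjusted p = 0.747). PSPH, the phosphatase that releases serine, read 8.55 and 7.91 in MV4-11 and 8.87 and 8.23 in MV4-11R. The higher MV4-11 array lay above the lower MV4-11R array, and the difference of 0.32 had an interval from -0.37 to 1.01 (SE 0.28, adjusted p = 0.551). Thus none of the 3 passed, and their intervals, as ratios of MV4-11R to MV4-11, ran from 0.641 to 1.37 for PHGDH, 0.576 to 1.37 for PSAT1 and 0.774 to 2.01 for PSPH.

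SHMT1 and SHMT2, which hand the carbon of serine to folate, did not pass. SHMT1, the cytosolic enzyme, read 7.89 and 7.93 in MV4-11 and 8.11 and 8.03 in MV4-11R. Both MV4-11R arrays were higher, by 0.16 on average (SE 0.11, interval -0.10 to 0.43, adjusted p = 0.402). SHMT2, the mitochondrial enzyme, read 12.65 and 12.38 in MV4-11 and 12.67 and 12.50 in MV4-11R. Its groups overlapped, with a difference of 0.07 (SE 0.14, interval -0.27 to 0.41, adjusted p = 0.822). The upper ends of these intervals are 1.34-fold for SHMT1 and 1.33-fold for SHMT2.

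The 2 enzymes that rose are related by sequence family and work on formate from opposite sides of the mitochondrial membrane. MTHFD1L, which releases formate in mitochondria, read 9.29 and 8.57 in MV4-11 and 10.24 and 9.85 in MV4-11R. Both MV4-11R arrays were above both MV4-11 arrays. The rise was 1.11 log2 units, or 2.17-fold (SE 0.26, interval 0.49 to 1.74, limma adjusted p = 0.0374). MTHFD1, the cytosolic enzyme with 3 activities that takes formate up again, read 9.21 and 8.86 in MV4-11 and 10.07 and 9.76 in MV4-11R. Its groups did not overlap either. It rose by 0.88 log2 units, or 1.84-fold (SE 0.17, interval 0.46 to 1.29, adjusted p = 0.0226). Both calls were lost without MV4-11 replicate 2 (adjusted p = 0.0727 for MTHFD1L and 0.0702 for MTHFD1) or without MV4-11R replicate 1 (0.119 and 0.0718). The differences then were 0.76 and 0.92 for MTHFD1L and 0.70 and 0.72 for MTHFD1.

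MTHFD2, the mitochondrial dehydrogenase that acts just before MTHFD1L, read 12.10 and 11.85 in MV4-11 and 12.29 and 12.15 in MV4-11R. The MV4-11R arrays were both higher, but the difference of 0.25 did not pass (SE 0.13, interval -0.08 to 0.57, adjusted p = 0.301).

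TYMS, thymidylate synthase, was the enzyme that fell. It read 10.59 and 10.41 in MV4-11 and 9.92 and 9.75 in MV4-11R, with no overlap. The fall was 1.59-fold (difference -0.67, SE 0.13, interval -0.97 to -0.36, limma adjusted p = 0.0211). The call was lost without MV4-11 replicate 1 (difference -0.57, adjusted p = 0.0911) or without MV4-11R replicate 2 (-0.58, adjusted p = 0.0627).

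**Figure D2:**
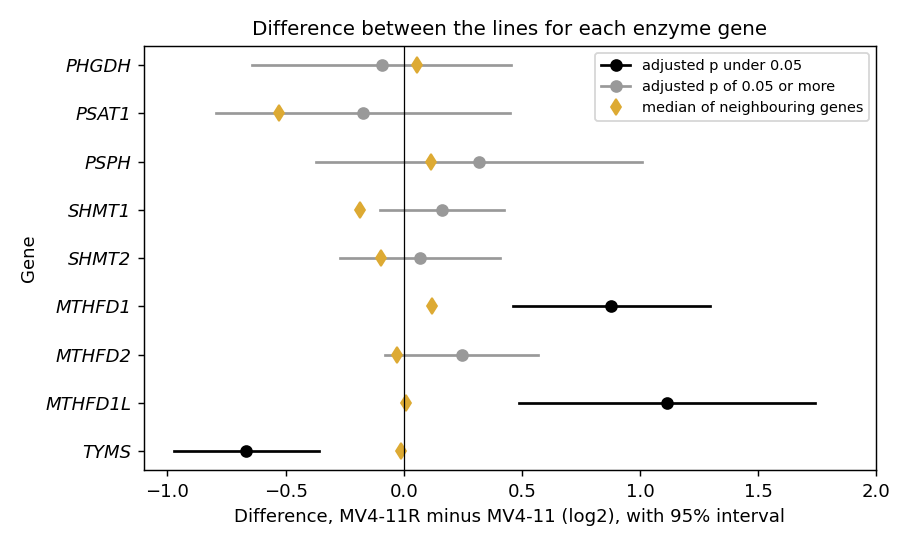
Difference in log2 signal between MV4-11R and MV4-11 (x axis) for each enzyme gene (y axis), with limma's 95% interval, in black where the adjusted p was under 0.05. Diamonds give the median difference of neighbouring genes on the chromosome, which is close to 0 for MTHFD1L and TYMS and -0.53 for PSAT1.

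In some chromosome regions the median signal difference of neighbouring genes between the lines lay away from 0, and DNA copy number was not measured. Each enzyme was therefore set beside its neighbours, the 15 nearest genes of above-median level on each side of it. That gave 30 neighbours, or 18 for TYMS, which lies near a chromosome end. The neighbours of MTHFD1L on chromosome 6 had a median difference of 0.01, those of MTHFD1 on chromosome 14 one of 0.12 and those of TYMS on chromosome 18 one of -0.01. All 3 enzymes still passed with the neighbours' median taken off (adjusted p = 0.0388, 0.0350 and 0.0229). PSAT1 lies on chromosome 9 among genes with a median of -0.53, and relative to them its difference was 0.35 (SE 0.25, adjusted p = 0.400), opposite in sign to its difference of -0.17. For SHMT1 on chromosome 17 the neighbours' median was -0.19 and the difference relative to them 0.35 (adjusted p = 0.0823).

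Several enzymes had further probe sets. The second PSPH probe set read 8.19 and 7.41 in MV4-11 and 8.66 and 7.71 in MV4-11R. Its groups overlapped as did those of the first, and the difference was 0.39. The second MTHFD2 probe set gave a difference of 0.23, against 0.25 for the first. MTHFD1L shared 4 probe sets with loci that carry only numbers as names, of which a pair held identical values, and these were higher in MV4-11R by 0.72 to 0.87 log2 units. Since these probe sets match several loci, they are uncertain evidence on MTHFD1L itself. A probe set shared by PHGDH and MZT2B gave a difference of -0.23. When every probe set of the table was tested on its own, which adds 14880 tests, the adjusted p was 0.108 for MTHFD1L, 0.0740 for MTHFD1 and 0.0657 for TYMS.

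Pairs of enzymes were then compared within each array, to ask whether a mitochondrial enzyme and its cytosolic partner changed by unequal amounts. The log2 ratio of MTHFD2 to MTHFD1 was 2.88 and 2.99 on the MV4-11 arrays and 2.22 and 2.39 on the MV4-11R arrays. It was lower on both MV4-11R arrays, by 0.63 on average, as MTHFD1 rose by more than the difference of MTHFD2. The ratio of MTHFD1L to MTHFD1 was higher on both MV4-11R arrays, by 0.24, and that of SHMT2 to SHMT1 overlapped between the lines (change of -0.09). In an exact permutation test, 2-sided, p was 0.33 for the first pair, 0.33 for the second and 1 for the third. With 2 arrays against 2 the smallest p this test can give is 0.33, so no pair could pass. These ratios compare probe sets of different brightness, and only their change between lines can be read.

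The replicate arrays of each line also differed in these enzymes. In MV4-11, replicate 1 read above replicate 2 for 8 of the 9, by up to 0.79 log2 units (PSAT1), 0.71 (MTHFD1L) and 0.65 (PHGDH and PSPH), and in MV4-11R for 9 of 9, by up to 0.64 (PSPH). Replicate 1 was above replicate 2 in both lines for 8 of the 9, against 29.6% of all genes. SHMT1 was the exception, with a gap of -0.04 in MV4-11 and 0.08 in MV4-11R. The SD within lines, pooled over both, was at the 96.2nd percentile of all genes for PHGDH, the 97.9th for PSAT1 and MTHFD1L and the 98.7th for PSPH, whereas it was at the 12th for SHMT1 and the 53.3rd for TYMS. For 5 of the 9 (PHGDH, PSAT1, PSPH, SHMT2 and, by little, MTHFD2) a gap between replicate arrays exceeded the difference between the lines. The labels do not say what the replicate numbers mark, and the part of this gap in the results was not tested.

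**Figure D3:**
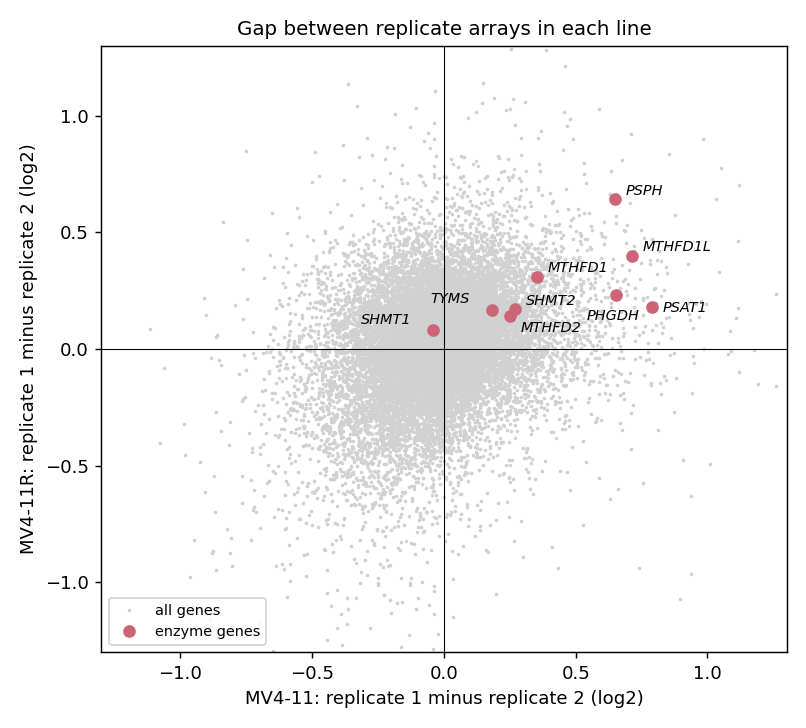
Replicate 1 minus replicate 2 (log2) in MV4-11 (x axis) and in MV4-11R (y axis), for all genes in grey and the enzyme genes in red. The 9 enzymes except SHMT1 lie in the upper right, with values above 0 on both axes, as do 29.6% of all genes, and 45 genes fall outside the axes.

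The other genes of the pathway and of its supply and use were taken from 9 lists, which together held 152 measured genes besides the 9 enzymes. There were 34 rises, 6 falls and 112 that did not pass, at a median difference of 0.25. The 26.3% that passed compare with 15.1% of all genes. Leaving out MV4-11 replicate 2 gave 21 that passed, and leaving out MV4-11R replicate 1 gave 25. The 15.1% covers genes of every level, dim ones too, whereas most genes of each pathway list read above the background guide on every array. When the dimmest genes were dropped, fewer genes were tested and yet 2964 of them passed, against 2772. The share among brighter genes was therefore higher, and 15.1% is a low yardstick for each pathway list.

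**Figure D4:**
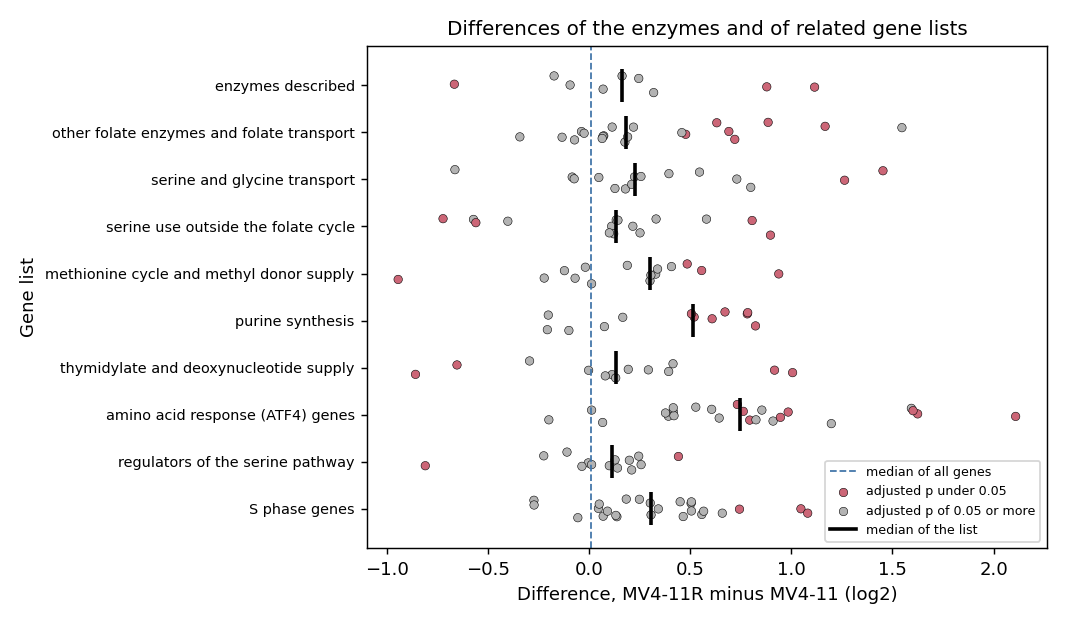
Difference in log2 signal, MV4-11R minus MV4-11 (x axis), of every measured gene in each list (y axis), with red points for an adjusted p under 0.05, a black bar at each list's median and a dashed line at the median of all genes. Purine synthesis and amino acid response genes have medians of 0.51 and 0.75. Those lists hold rises and no falls among genes that passed, as do the lists of other folate enzymes, serine and glycine transport and S phase genes.

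Among other folate enzymes and folate transporters, 20 genes were measured, with a median of 0.18. Of these 6 rose, 0 fell and 14 did not pass, so that 30% passed, against 15.1% of all genes. ALDH1L2, the mitochondrial enzyme that oxidises the formyl group of folate to carbon dioxide, read 9.32 and 8.53 in MV4-11 and 10.22 and 9.96 in MV4-11R. Both resistant arrays were higher, and the rise was 2.25-fold (difference 1.17, SE 0.26, limma adjusted p = 0.0351). The proton-coupled folate transporter SLC46A1 rose 1.85-fold from a mean of 6.21, which is under the background guide, so its fold is not exact. QDPR, which recycles the related cofactor tetrahydrobiopterin, rose 1.65-fold. The other 3 rises were named after their values were seen. They were of the mitochondrial folate carrier SLC25A32 (difference 0.63), the folate receptor FOLR2 (0.69) and DLD (0.48). DLD is a subunit that the glycine cleavage system shares with other enzymes. FOLR2 read 6.32 and 6.53 in MV4-11, just above the background guide of 6.28, so its difference is not exact either. Leaving out MV4-11 replicate 1 ended the calls on QDPR (adjusted p = 0.0543), FOLR2 (0.137) and DLD (0.114), and leaving out MV4-11 replicate 2 those on SLC25A32 (0.0896), FOLR2 (0.0578) and DLD (0.152). Without MV4-11R replicate 1 the calls on ALDH1L2 (0.108), SLC25A32 (0.0701) and DLD (0.137) were lost, and without MV4-11R replicate 2 those on FOLR2 (0.0974) and DLD (0.0634). The SLC25A32 call was lost with its neighbours' median of 0.24 taken off (0.0791). FOLR1, a further folate receptor named after its value was seen, had the largest difference named here, 1.55, and did not pass (limma adjusted p = 0.0956). It read 5.81 and 5.82 in MV4-11, under the background guide, and 6.52 and 8.21 in MV4-11R, where the arrays lay far apart.

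Purine synthesis, which consumes the formyl-folate that MTHFD1 makes, had 7 of 12 genes rising, 0 falling and 5 not passing, with a median of 0.51. The share that passed was 58.3%, against 15.1% of all genes. ATIC, which carries out the last steps and uses formyl-folate, read 10.55 and 10.25 in MV4-11 and 11.36 and 11.09 in MV4-11R. The groups did not overlap, and it rose 1.77-fold (difference 0.82, SE 0.15, limma adjusted p = 0.0204). PAICS and PFAS, enzymes of the middle of the pathway, each rose 1.72-fold (adjusted p = 0.0136 and 0.0403). The other 4, named after their values were seen, were GART, which also uses formyl-folate (difference 0.67), PRPS1 (0.61), the entry enzyme PPAT (0.52) and IMPDH2 of guanine nucleotide synthesis (0.51). The direction was the same in these 7, but fewer passed with an array left out: leaving out MV4-11 replicate 1 left 3 rises, leaving out its replicate 2 left 1, and leaving out MV4-11R replicate 1 or 2 left 3 or 4. Without MV4-11 replicate 2 adjusted p was 0.0697 for ATIC, 0.0516 for PAICS, 0.128 for PFAS, 0.0607 for PRPS1, 0.0954 for PPAT and 0.111 for IMPDH2. Without MV4-11R replicate 1 it was 0.0672 for ATIC, 0.127 for PFAS, 0.0557 for PPAT and 0.0940 for IMPDH2. Without MV4-11 replicate 1 it was 0.0566 for GART, 0.0772 for PRPS1, 0.146 for PPAT and 0.102 for IMPDH2. Without MV4-11R replicate 2 it was 0.0537 for PRPS1, 0.114 for PPAT and 0.0657 for IMPDH2. PPAT also lost its call with its neighbours' median taken off (0.0588).

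Genes that supply thymidylate and other deoxynucleotides went both ways around the fall of TYMS. Rises numbered 2 of 13, falls 2, and 9 did not pass (median 0.13). The 30.8% that passed compare with 15.1% of all genes. RRM2, the ribonucleotide reductase subunit that varies with the cell cycle, read 8.75 and 8.78 in MV4-11 and 9.71 and 9.83 in MV4-11R. It rose 2.01-fold, with both resistant arrays higher (difference 1.01, SE 0.11, limma adjusted p = 0.00425). UNG, which removes uracil from DNA, rose 1.89-fold. DCK, the salvage kinase of deoxycytidine, fell 1.81-fold and SAMHD1, which breaks down deoxynucleotides, fell 1.57-fold. TK1, the salvage kinase of thymidine, differed by -0.29 (adjusted p = 0.145) and DUT, which makes the precursor used by TYMS, by -0.0021 (adjusted p = 0.996), both named after their values were seen. SAMHD1 no longer passed when MV4-11 replicate 1 (0.0981) or 2 (0.0688) or MV4-11R replicate 1 (0.0870) was left out.

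S phase genes were included since TYMS and RRM2 vary with the cell cycle. There were 25 measured, with 3 rises, 0 falls and 22 that did not pass, and a median of 0.31. The share that passed was 12%, under the 15.1% of all genes, of which 7.92% rose. POLE2, a subunit of a replicative DNA polymerase, rose 2.12-fold, GINS1, part of the replicative helicase, rose 2.07-fold and MCM6, a helicase subunit, rose 1.67-fold (limma adjusted p = 0.00400, 0.0276 and 0.0460). Replicate 1 was above replicate 2 in both lines for 19 of the 25. Rises numbered 1 with MV4-11 replicate 2 left out, 2 with its replicate 1 or with MV4-11R replicate 1 left out, and 8 with MV4-11R replicate 2 left out. MCM6 no longer passed when MV4-11 replicate 1 (0.0578) or 2 (0.149) or MV4-11R replicate 1 (0.131) was left out. The call on GINS1 was lost without MV4-11 replicate 2 (0.0768) and with its neighbours' median taken off (0.0604).

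Serine and glycine transporters had 2 of 15 members rising, 0 falling and 13 not passing, with a median of 0.23. The share that passed was 13.3%, near the 15.1% of all genes, of which 7.92% rose. SLC38A5, a carrier of glutamine, serine and glycine, read 7.48 and 7.76 in MV4-11 and 8.99 and 8.78 in MV4-11R. It rose by 1.26 log2 units, with the lines well apart (SE 0.14, limma adjusted p = 0.00481). SLC38A1, a related carrier, rose 2.74-fold from 10.35 and 9.55 to 11.63 and 11.17 (adjusted p = 0.0230, or 0.0700 without MV4-11R replicate 1). SLC1A5, a further carrier of neutral amino acids named after its value was seen, was higher by 0.73 and did not pass (adjusted p = 0.0522). Leaving out MV4-11R replicate 1 left 1 rise, leaving out MV4-11 replicate 1 gave 3, and leaving out MV4-11R replicate 2 gave 5.

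Serine is also used outside the folate cycle, and of 15 such genes there were 2 rises and 2 falls, while 11 did not pass. Thus 26.7% passed, against 15.1% of all genes. SARS2, which loads serine onto mitochondrial transfer RNA, rose 1.86-fold and SERINC2, of a family of membrane proteins named for serine incorporation into lipids, rose 1.75-fold. Its relative SERINC1 fell 1.47-fold, and GNMT, which methylates glycine, fell 1.65-fold. The level of GNMT in MV4-11R, 6.04, was under the background guide. SERINC1 no longer passed when MV4-11 replicate 1 (limma adjusted p = 0.0718) or 2 (0.119) or MV4-11R replicate 1 (0.106) was left out.

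In the methionine cycle and methyl donor list, of 15 genes, there were 3 rises, 1 fall and 11 that did not pass (median 0.30). Calls made up 26.7% of the list, against 15.1% of all genes. The spermidine synthase gene SRM rose 1.92-fold (limma adjusted p = 0.0142). MAT2A, which makes the methyl donor S-adenosylmethionine, rose 1.47-fold and the methionine salvage enzyme MTAP rose 1.40-fold. AHCYL2, a relative of the enzyme that clears S-adenosylhomocysteine, fell 1.92-fold. MTAP failed to pass whichever array was left out (adjusted p from 0.0643 to 0.151). MAT2A failed when MV4-11 replicate 1 (0.111) or 2 (0.0947) or MV4-11R replicate 1 (0.111) was left out, and AHCYL2 when MV4-11 replicate 2 (0.0616) or MV4-11R replicate 1 (0.0707) was. There was 1 rise when either MV4-11 array or MV4-11R replicate 1 was left out, and 2 when MV4-11R replicate 2 was.

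PHGDH, PSAT1, PSPH, SHMT2 and MTHFD2 are textbook targets of ATF4, the transcription factor of the amino acid response, so the other genes of that response were listed too. There were 8 rises and 0 falls among 24 measured, with 16 that did not pass and a median of 0.75. The share that passed was 33.3%, against 15.1% of all genes, of which 7.92% rose. The hormone gene STC2 rose 4.31-fold from a mean of 5.34, under the background guide, so its fold is not exact. CHAC1, which degrades glutathione, rose 3.08-fold from 8.65 and 8.43 to 10.51 and 9.82 (limma adjusted p = 0.00962), and ALDH18A1, of proline synthesis, rose 3.04-fold (adjusted p = 0.00761). ATF4 itself differed by 0.01 (adjusted p = 0.972). ASNS, asparagine synthetase, read 10.09 and 9.06 in MV4-11 and 10.54 and 9.90 in MV4-11R, overlapping, with a difference of 0.64 (adjusted p = 0.325). TRIB3 (1.59, adjusted p = 0.0836) and SLC7A11 (1.20, adjusted p = 0.102) did not pass either, and these last 4 genes were named after their values were seen. Replicate 1 was above replicate 2 in both lines for 16 of the 24. Leaving out MV4-11 replicate 1 gave 12 rises, MV4-11R replicate 2 gave 13, and either of the other arrays gave 6.

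Regulators of the pathway numbered 14, with 1 rise, 1 fall, 12 that did not pass and a median of 0.11. The share that passed was 14.3%, near the 15.1% of all genes. EHMT2, a histone methyltransferase known to act on serine synthesis genes, fell 1.75-fold (limma adjusted p = 0.00800), and lost its call with its neighbours' median of -0.41 on chromosome 6 taken off (0.0602). MDM2 rose 1.36-fold (adjusted p = 0.0460), which did not pass whichever array was left out (0.0759 to 0.181) or with its neighbours' median of 0.12 taken off (0.101). MYC, named after its value was seen, read 11.55 and 11.55 in MV4-11 and 11.80 and 11.82 in MV4-11R, a difference of 0.26 that did not pass (adjusted p = 0.170). Relative to its neighbours, whose median was 0.30, the sign turned (difference -0.04, adjusted p = 0.823).

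Markers of the line's own lineage and of other cells were set beside these results. Of 10 AML and myeloid markers 0 rose, 4 fell and 6 did not pass, with a median of -0.21. The 40% that fell compare with 7.13% of all genes. The receptor gene FLT3 read 11.74 and 11.77 in MV4-11 and 10.89 and 10.77 in MV4-11R, a fall of 1.90-fold (difference -0.93, limma adjusted p = 0.00526). ANPEP fell 2.27-fold (adjusted p = 0.0110), PTPRC 1.75-fold (0.0207) and LYZ, lysozyme, 1.61-fold (0.0192). PTPRC did not pass without MV4-11 replicate 1 (0.0553) or 2 (0.0647) or MV4-11R replicate 1 (0.0521), nor LYZ without MV4-11 replicate 2 (0.0780) or MV4-11R replicate 2 (0.0542). The mean log2 level over the list was 8.94 to 9.05 in MV4-11 and 8.66 to 8.78 in MV4-11R. Of 5 B cell markers PAX5 rose and CD79B fell, and of 7 T and NK cell markers NKG7 rose and NCAM1 fell. Of 6 erythroid and megakaryocytic markers ITGA2B fell, and of 10 epithelial and fibroblast markers KRT18 fell. In that order 40%, 28.6%, 16.7% and 10% of the lists passed, against 15.1% of all genes. With an array left out, PAX5 and ITGA2B passed only where it was MV4-11R replicate 2 (adjusted p up to 0.0773 and 0.0903 without another) and KRT18 only where it was MV4-11R replicate 1 (up to 0.123). The mean log2 level over each whole list was 6.48 to 6.51 in MV4-11 and 6.43 to 6.57 in MV4-11R for B cells. For T and NK cells it was 6.45 to 6.62 and 6.32 to 6.46. It was 6.54 to 6.59 and 6.52 to 6.63 for erythroid and megakaryocytic cells, and 6.42 to 6.43 and 6.30 to 6.41 for epithelial cells and fibroblasts. Their part in the enzymes' differences was not tested.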

How the data were processed

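RNA of 2 arrays per line was hybridised to Affymetrix arrays, with biotin labelling per the labels' protocols. The deposited values are log2 signal per probe set, which the authors made with RMA (background correction, quantile normalization, probe summary); the submitters' processing notes name RMA and Affymetrix Expression Console without a version. The range of the values shows the log2 scale. RMA compresses differences of dim genes. No depth exists for arrays, and their number limits the precision.

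Of 33297 probe sets, 19460 had 1 gene in the platform annotation, 1754 several and 12083 none listed. Symbols were updated by Entrez ID in a RefSeq table (GRCh38.p14; 29 IDs had no match). The brightest probe set per gene gave 18417 genes, with no filter on level. Each was tested with limma 3.58.1 (R 4.3.3; lmFit and eBayes, 2-sided, Benjamini-Hochberg over all genes; 2 residual degrees of freedom, 6.06 with the prior), and SE is limma's moderated error. The step was tested on simulated data. The labels name no separate cultures, so the spread behind each p-value is that between arrays and may be technical.

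The members, gene lists and motifs were chosen with earlier results of these data known. Genes named by rule are the 9 enzymes and, per pathway list, the largest 3 rises and 3 falls that passed (or the largest difference where none did). Outside this rule, every cell type marker that passed was named, as were SPI1, CEBPA and EZH2. Other genes are marked as named after their values were seen. A list's measured number counts the genes analysed here. Alternatives were a replicate block, leaving out each array, median centring, quantile normalization, genes above the 25th percentile of level, trended and robust variance, regional shift removed, the mean of probe sets, and all probe sets.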

Additional observations from a re-analysis of the deposited data

How the results depend on the processing

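The 3 calls on MTHFD1, MTHFD1L and TYMS held under median centring, quantile normalization and the filter on level. They also held under trended and robust variance and with the regional shift removed. The mean of probe sets could not change their values, since each has 1 probe set of its own. All 3 calls were lost when every probe set was tested on its own (limma adjusted p = 0.0740, 0.108 and 0.0657). With an array left out, 1 to 2 of the 9 enzymes passed, and differences ran from 0.70 to 1.06 for MTHFD1, 0.76 to 1.47 for MTHFD1L, -0.76 to -0.57 for TYMS, -0.42 to 0.23 for PHGDH, -0.57 to 0.22 for PSAT1, -0.0044 to 0.64 for PSPH, 0.12 to 0.20 for SHMT1, -0.066 to 0.20 for SHMT2 and 0.12 to 0.37 for MTHFD2. The signs of PHGDH, PSAT1, PSPH and SHMT2 are therefore not settled, and PSAT1 was also 0.35 with the regional shift removed. The change in log2 ratio ran from -0.25 to 0.062 for SHMT2 over SHMT1, -0.72 to -0.55 for MTHFD2 over MTHFD1 and 0.06 to 0.42 for MTHFD1L over MTHFD1. Over all genes 1588 to 2479 passed with an array left out, against 2772, and 1505 of all probe sets tested on their own; 21 to 47 of the other pathway genes passed, against 40.

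With the replicate number as a block, 62 of the other pathway genes passed, among them 15 amino acid response genes against 8, 9 S phase genes against 3 and 6 transporters against 2. The 3 enzymes passed with the block too (adjusted p = 0.0057 for MTHFD1, 0.0051 for MTHFD1L and 0.0120 for TYMS), and PSPH did not (0.0900). Deviations of same-numbered arrays from their line means correlated at r = 0.262 over 18417 genes, which with 2 pairs does not show that the numbers pair the arrays. Enzymes near their line's spread, such as PSPH, would need more arrays to be placed.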
